A study of Mus musculus with 100 samples.

Results

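The NCoR corepressor complex was described here through 5 of its subunit genes, Gps2, Ncor1, Tbl1x, Tbl1xr1 and Hdac3, in fat of mice labelled wild type or adipocyte Gps2 knockout. The genes were chosen by name, as the gene targeted in the study and its main partners, out of 32484 genes with a value, and not by how they behaved. Their 47 annotated transcripts were all found in the deposited tables. Each transcript was compared between replicates labelled wild type and replicates labelled knockout, within 1 table at a time.

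Poly(A) RNA was sequenced from fat, and the libraries, titled WT or KO, fall into 5 tables. CD stands for intra-abdominal fat on normal chow at 19 weeks of age (3 wild type and 3 knockout replicates). HFD stands for that depot at 11 weeks of age (4 and 4), its table name giving 4 weeks of high fat diet. Epi (intra-abdominal fat, 3 and 3) and Adipo (adipocytes of the same depot, 3 and 2) come from animals aged 19 weeks, and their table names give 12 weeks of that diet. BA is inguinal fat at 8 weeks of age from the beta-adrenergic arm (4 and 4), whose agent and dose the labels leave out. Knockout stands for Gps2 flox/flox alleles with Cre driven by Adipoq, the adiponectin promoter, which is active in adipocytes, so the other cells of whole fat keep Gps2. The strain label, Adipoq-Cre-Gps2flox/flox, is the same for both genotypes, which stand only in the titles. Whether the wild type animals carried the floxed alleles or Cre is therefore not known. The labels do not say which exons the floxed alleles remove.

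Nuclear receptors and other DNA-bound repressors silence their targets by recruiting a complex built on a scaffold protein such as NCoR (encoded by Ncor1). The scaffold binds the histone deacetylase HDAC3 and activates it, and removal of acetyl groups from histones lowers transcription. GPS2 and the WD40-repeat proteins TBL1 and TBLR1 (encoded by Tbl1x and its close relative Tbl1xr1) sit on the same scaffold. TBL1 and TBLR1 also take part in the exchange of corepressors for coactivators, and GPS2 is known as an inhibitor of the ubiquitin-conjugating enzyme UBC13 (encoded by Ube2n). In fat, PPARγ and its partners are among the receptors that use this complex.

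Replicates held between 29444602 and 63456837 recovered reads on the chosen transcripts, and all 12 adipocyte markers were measured in every group. Some replicates stood apart from their groups. Summed epididymis markers lay between 43745 and 153884 in CD wild type 2 and CD knockout 1 and 2. They were at 85966 and 26096 in Epi knockout 2 and 3, and no other CD or Epi replicate exceeded 640.2. Of the 7 markers, 2 reached a value of 10 in CD wild type 2, 3 in CD knockout 1 and 2, and all 7 in Epi knockout 2 and 3. Replicates with these high sums are called below those holding epididymis RNA, though most of the list was low in the CD ones. Coverage along genes was measured as the 5′ to 3′ balance, the median over 637 genes of the log2 ratio of a transcript nearer the 5′ end of its gene to one nearer the 3′ end, so that a lower value means fewer reads toward the 5′ end. It was −0.81 and −1.29 in HFD wild type 3 and 4, against −0.44 to −0.37 in the other 6 HFD replicates. In the Adipo table the summed endothelial markers were 15691 and 36263 in the replicates labelled knockout and from 2160.3 to 3973 in wild type, without overlap. Of the CD, HFD and BA replicates, CD knockout 1 and 2 differed least from each other. The chi-square per degree of freedom between their libraries had medians of 1.87 and 2.06. The CD median was 86.6 between replicates and 1.06 within a replicate. Whether these 2 are separate samples was not tested. CD tests below count them as 2 replicates, apart from an alternative that took them as 1. All CD genes had a median log2 fold change of 0.11, and 0.01 with TMM scaling, so CD differences below are relative to that shift. Fewer cells of a type and less RNA per cell cannot be told apart in any of these samples.

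**Figure D1:**
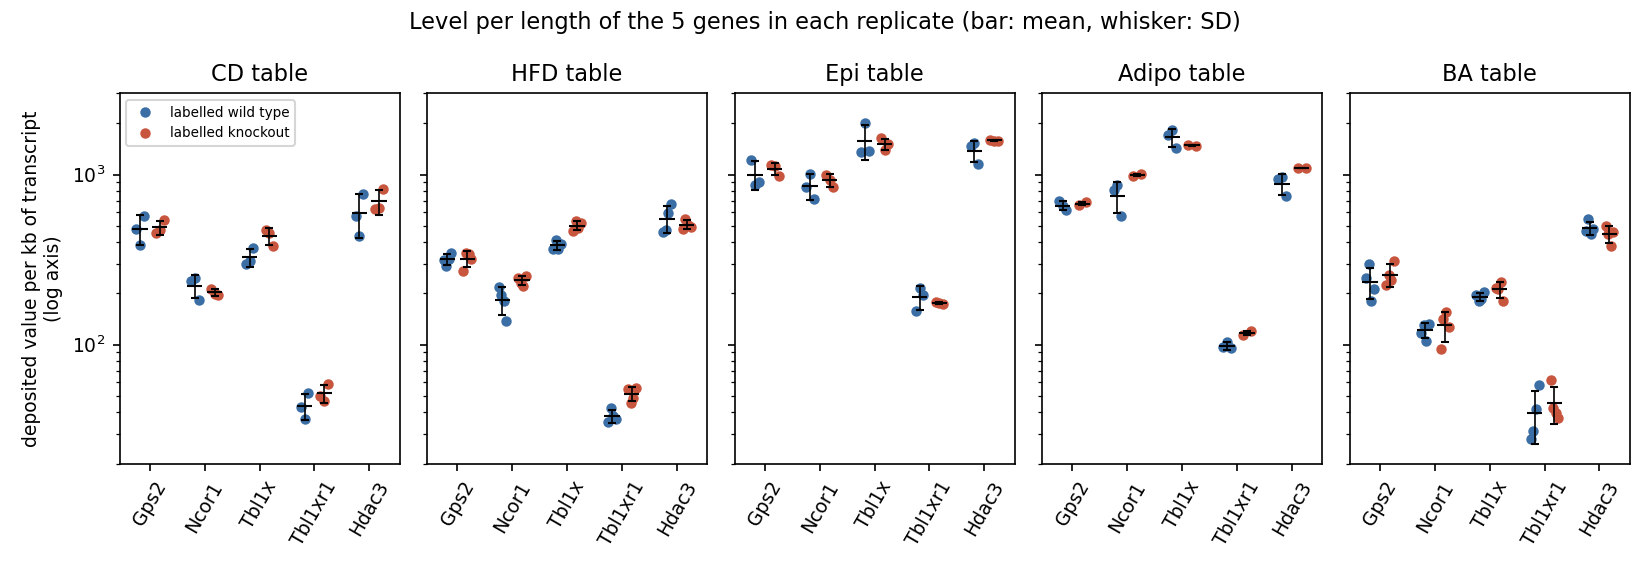
Deposited value per kb of the chosen transcript (log axis) for the 5 genes in every replicate of the 5 tables, with the mean and SD of each genotype. Tbl1xr1 is the lowest of the 5 genes in every table, and the genotypes of most genes overlap.

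Per kb of transcript, Hdac3, the catalytic subunit, had the highest wild type mean in the CD, HFD and BA tables, and Tbl1x in the Epi and Adipo tables. Hdac3 overlapped the next gene, Gps2, in the CD table, and Tbl1x overlapped Hdac3 in the Epi table. In the HFD table the order was Hdac3 at 550.4 ± 99.6 per kb (SD, n = 4), Tbl1x at 384 ± 21.7, Gps2 at 318 ± 22.2, Ncor1 at 183 ± 34.4 and Tbl1xr1 at 38.0 ± 3.16. No neighbours in that order overlapped. In the Adipo table, Tbl1x stood alone at 1657 ± 209 per kb (SD, n = 3), while Hdac3 (884 ± 120.4) overlapped Ncor1 (749 ± 156) and Ncor1 overlapped Gps2 (658 ± 39.1). Tbl1xr1 was last in all 5 tables, without overlapping the gene above it. The Tbl1x to Tbl1xr1 ratio per kb within a replicate, which does not depend on the scaling of a library, lay between 14.99 and 17.8 in wild type Adipo replicates and between 3.52 and 7.07 in wild type BA replicates. Because the tables differ in depot, age, diet and preparation at once, this order was not tested. The lead of Tbl1x was smaller in the Adipo replicates labelled knockout, at 12.4 and 13.0, below all 3 wild types, where an exact two-sided permutation test gave p = 0.2 and cannot go below 0.1. In the other 4 tables this ratio overlapped between genotypes.

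Gps2 was first examined as the targeted gene. Its chosen transcript, Gps2-201, has 10 exons on the plus strand of chromosome 11, from 69914192 to 69916591 (GRCm38), and shares no exonic base with the neighbouring genes Neurl4 and Eif5a. It was not lower in the replicates labelled knockout of any table. In the BA table the 4 wild types had values of 301, 363, 221 and 260.4, and the 4 knockouts 272, 312, 295 and 381. In the HFD table the wild types were at 384, 355, 392 and 421 and the knockouts at 330.5, 424, 417 and 389. The genotypes overlapped in both, with log2 fold changes of 0.15 ± 0.17 (SE; limma adjusted p = 0.88) and 0.01 ± 0.10 (adjusted p = 0.983).

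The other 3 tables gave the same picture for whole Gps2. CD wild types were at 588, 468 and 701 and knockouts at 553, 575 and 663, a log2 fold change of 0.04 ± 0.18 (SE; limma adjusted p = 0.94). In the Epi table the wild types were at 1494, 1061 and 1110.0 and the knockouts at 1387, 1363 and 1198 (0.12 ± 0.16, adjusted p = 0.847). The replicates labelled adipocytes were at 851, 803 and 755 in wild type and 811 and 839 in knockout (0.04 ± 0.13, adjusted p = 0.868). Both adipocyte knockouts lay inside the wild type range. Markers of some other cells were higher in these 2 knockouts. Beside the endothelial sums given above, summed stromal markers were 35371 and 29589 against 16265 to 24941 in wild type, and mesothelial markers 1375 and 919 against 122 to 591. Mast cell markers were 518 and 206 against 50.1 to 76.7. Macrophage sums overlapped, at 15718 and 9795 against 9694 to 35143, as did B cell, T cell and skeletal muscle sums. No gene of these marker lists passed limma there, and 20.7% of all Adipo genes were higher without overlap. The part of other cells in the Gps2 values was not tested. The 95% interval of the adipocyte difference reached from −0.27 to 0.35 on the log2 scale. A count over the whole gene can miss a deletion of some exons, so these values neither bear out nor contradict the labels, and genotypes are given below as labelled.

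The reads along Gps2 lay apart between genotypes in the BA table, though no ratio of a Gps2 transcript to Gps2-201 passed limma in any table. Beside 3 full-length forms whose values were nearly the same, the annotation holds 2 short ones with no base in common. Gps2-204, a processed transcript of 5 exons and 534 bases, spans the middle of the gene (69914845 to 69915880), from exon 2 to exon 7 of Gps2-201. Gps2-205, of 2 exons and 431 bases, spans the 3′ end (69916041 to 69916556), from exon 8 to exon 10. Some transcripts are nested, with every exon inside an exon of another. Of their values, 99.6% were not above that of the transcript holding them, so they were taken to share reads. Gps2-204 and Gps2-205 hold intron bases of Gps2-201 and are not nested in it. The values of Gps2-204 and Gps2-205 are used here as counters of the middle and of the end of the gene, a use that was not tested. Reads of the short forms cannot be told apart from reads of Gps2-201 in the same exons. The sequences below, from GENCODE M21, are the first exon of Gps2-204, the longest exon in the middle of the gene, and the coding part of the last exon of Gps2-205, all on the plus strand. Capitals mark bases that are intron in Gps2-201 (69914862 to 69914932 and, in Gps2-205, from 69916294), and lower case marks bases shared with it.
Gps2-204 first exon, chr11:69914845-69915045: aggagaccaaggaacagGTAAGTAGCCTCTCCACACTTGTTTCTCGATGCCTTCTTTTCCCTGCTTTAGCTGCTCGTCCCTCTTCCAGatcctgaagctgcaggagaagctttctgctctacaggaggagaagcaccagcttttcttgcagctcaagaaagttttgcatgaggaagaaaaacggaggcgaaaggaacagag
Gps2 exon 6, chr11:69915631-69915784: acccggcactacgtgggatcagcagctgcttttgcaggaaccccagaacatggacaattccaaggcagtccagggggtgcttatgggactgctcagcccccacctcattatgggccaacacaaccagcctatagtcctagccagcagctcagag
Gps2-205 last exon to the end of its coding sequence, chr11:69916198-69916395: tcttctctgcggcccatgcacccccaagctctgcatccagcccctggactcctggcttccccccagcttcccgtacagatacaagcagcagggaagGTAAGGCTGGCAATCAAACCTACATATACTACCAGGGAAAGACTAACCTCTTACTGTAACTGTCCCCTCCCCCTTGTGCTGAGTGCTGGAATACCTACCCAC

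In inguinal fat of the BA table, the middle of Gps2 was lower and its end higher, relative to the whole gene, in every replicate labelled knockout. The Gps2-204 value was 45.5%, 41.7%, 45.4% and 47.3% of the Gps2-201 value in the 4 wild types. In the 4 knockouts it was 29.7%, 33.8%, 35.4% and 32.4%. The Gps2-205 value stood at 40.5%, 43.1%, 37.8% and 38.7% in wild type and 53.8%, 50.9%, 50.7% and 54.1% in knockout. Neither measure overlapped between genotypes. With the values of both short forms taken off, 13.99% to 16.8% of the Gps2-201 value was left in wild type. In knockout 13.5% to 16.5% was left, with overlap. This is not exactly the part in neither form, since both short forms also hold bases that are intron in Gps2-201. Over all tables, exact Clopper-Pearson 95% intervals of a Gps2-204 percentage had half-widths of 1.8 to 3.67 percentage points. They came from 738 to 2903 reads of Gps2-201 per replicate. They cover counting error only and treat the Gps2-204 reads as a part of the Gps2-201 reads.

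The ratio of Gps2-204 to Gps2-205, middle over end, sums both shifts in 1 number. In the BA table it was 1.12, 0.97, 1.20 and 1.22 in the wild types and 0.55, 0.66, 0.70 and 0.60 in the knockouts. The highest knockout was below the lowest wild type, and the knockout level was 0.557 of the wild type level (log2 difference −0.84). An exact two-sided permutation test over replicates gave p = 0.0286, the smallest that 4 against 4 can give. This ratio was chosen after the values had been seen. Without each BA replicate in turn the log2 difference ran from −0.92 to −0.78.

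Over all 41872 isoform ratios of the BA table, limma called none (0%), and the Gps2 ratios did not pass either. The Gps2-204 ratio had a log2 fold change of −0.45 ± 0.065 (SE; unadjusted p = 0.000154, adjusted p = 1, rank 5 by p). The Gps2-205 ratio had 0.39 ± 0.049 (unadjusted p = 6.96e-05, adjusted p = 0.971, rank 3). They were the 2 of 39 member ratios with an unadjusted p under 0.05, beside 2.45% of all ratios. Of all ratios, 0.953% did not overlap between genotypes in the lower direction and 0.523% in the higher, and Gps2-204 and Gps2-205 were among them. The balance of the BA replicates overlapped between genotypes, at −0.80 to −0.50 in wild type and −1.11 to −0.35 in knockout. With the balance as a term the Gps2-204 difference was −0.42 ± 0.055 (SE; limma adjusted p = 0.505). Summed adipocyte markers were also higher in the BA knockouts (693198 to 1015820) than in the wild types (615950.0 to 677945), and their part in the Gps2 shift was not tested.

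**Figure D2:**
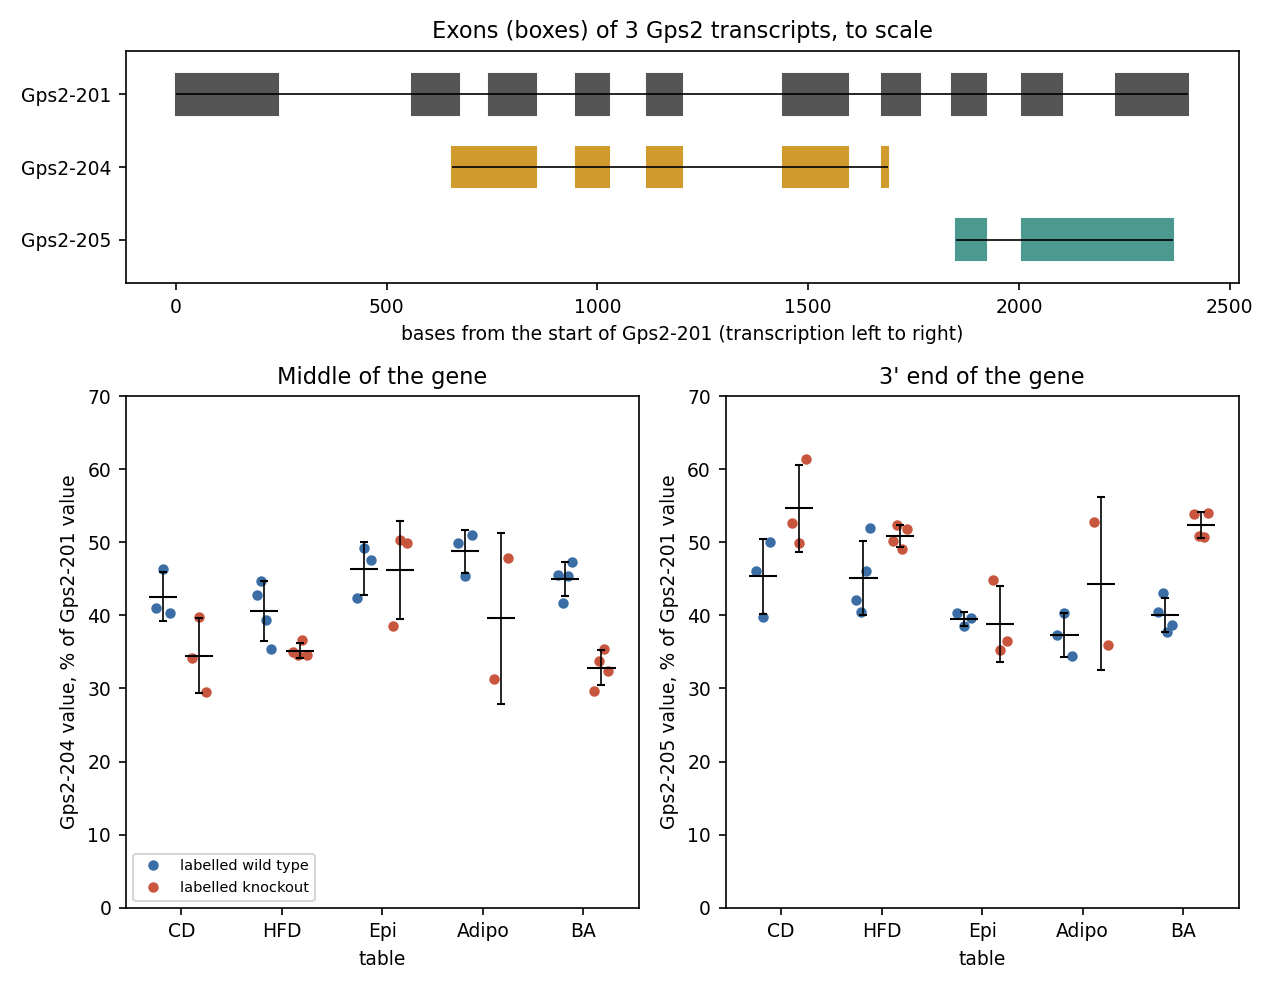
Top, exons of 3 Gps2 transcripts to scale, in bases from the start of Gps2-201. Bottom, the value of Gps2-204 (middle) and of Gps2-205 (3′ end) as a percent of that of Gps2-201 in each replicate, with the mean and SD; in the BA table the genotypes lie apart in both panels, and in the Epi table they overlap.

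In intra-abdominal fat the shift had the same sign in the CD and HFD tables and was smaller. The ratio of middle to end was 0.89, 1.16 and 0.80 in CD wild types and 0.65, 0.80 and 0.48 in CD knockouts. Wild type 3 (0.805) and knockout 2 (0.797) almost met, and the exact two-sided permutation test gave p = 0.1, its smallest for 3 against 3. The Gps2-204 percentages of CD did not overlap either, at 40.3% to 46.4% in wild type and 29.5% to 39.8% in knockout, beside 8.94% of all isoform ratios that were lower without overlap. HFD wild types were at 1.02, 1.11, 0.85 and 0.68 and HFD knockouts at 0.70, 0.66, 0.75 and 0.67. Wild type 4 lay within the knockout range, and p was 0.0857 (exact permutation, two-sided). Wild types 3 and 4 were also the 2 HFD replicates with few reads toward the 5′ end. Without them the log2 difference of the HFD ratio went from −0.38 to −0.62, with wild types at 1.02 and 1.11 against at most 0.75. The balance was −1.15, −1.14 and −1.63 in CD knockouts and −0.92, −0.55 and −1.39 in CD wild types, with 2 of the 3 wild types above every knockout. With the balance as a term the Gps2-204 ratio of the CD table differed by −0.18 ± 0.11 (SE; limma unadjusted p = 0.17), beside 6.24% of all CD ratios with an unadjusted p under 0.05 without that term. Without the 3 CD replicates holding epididymis RNA the CD difference went from −0.58 to −0.81, with 1 knockout left.

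The 2 tables with 12 weeks of diet behaved differently from replicate to replicate. In the Epi table the ratio was 1.05, 1.28 and 1.20 in wild type and 0.86, 1.43 and 1.36 in knockout. In the Adipo table it was 1.34, 1.13 and 1.48 in wild type and 0.59 and 1.33 in knockout. Knockout 1 was thus the lowest replicate of both tables, while knockout 2 lay above every wild type in the Epi table and among them in the Adipo table. Gps2-204 stood at 31.3% of the Gps2-201 value in Adipo knockout 1 and 47.9% in Adipo knockout 2. The 3 wild types were at 45.5% to 50.9%. Deviations of same-numbered Epi and Adipo replicates from their group means had correlations over genes from 0.16 to 0.70 in 5 pairs. Epi knockout 2 and 3, the replicates with high ratios, were also those holding epididymis RNA. Adipo knockout 2 was not, with summed epididymis markers of 38.1. Exact two-sided permutation tests gave p = 1 for the Epi table and p = 0.4 for the Adipo table, where 3 against 2 cannot go below 0.1.

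Across the 5 tables, 1 limma fit over the 40471 isoform ratios measured in all of them tested whether the knockout difference varied by table. It called 0.0642% of ratios, but neither Gps2-204 (adjusted p = 0.38) nor Gps2-205 (adjusted p = 0.366). The mean difference over the 5 tables was −0.26 ± 0.055 for the Gps2-204 ratio (SE; unadjusted p = 6.72e-05, adjusted p = 0.0981) and 0.20 ± 0.049 for the Gps2-205 ratio (adjusted p = 0.207), in a fit that called 0.0222% of ratios. Neither passed, and Gps2-204 ranked 27 by p. With same-numbered Epi and Adipo replicates as a block the mean differences were −0.26 ± 0.055 (SE; limma adjusted p = 0.102) and 0.20 ± 0.049 (adjusted p = 0.216), and neither ratio varied by table at an adjusted p under 0.05 (0.375 and 0.362).

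**Figure D3:**
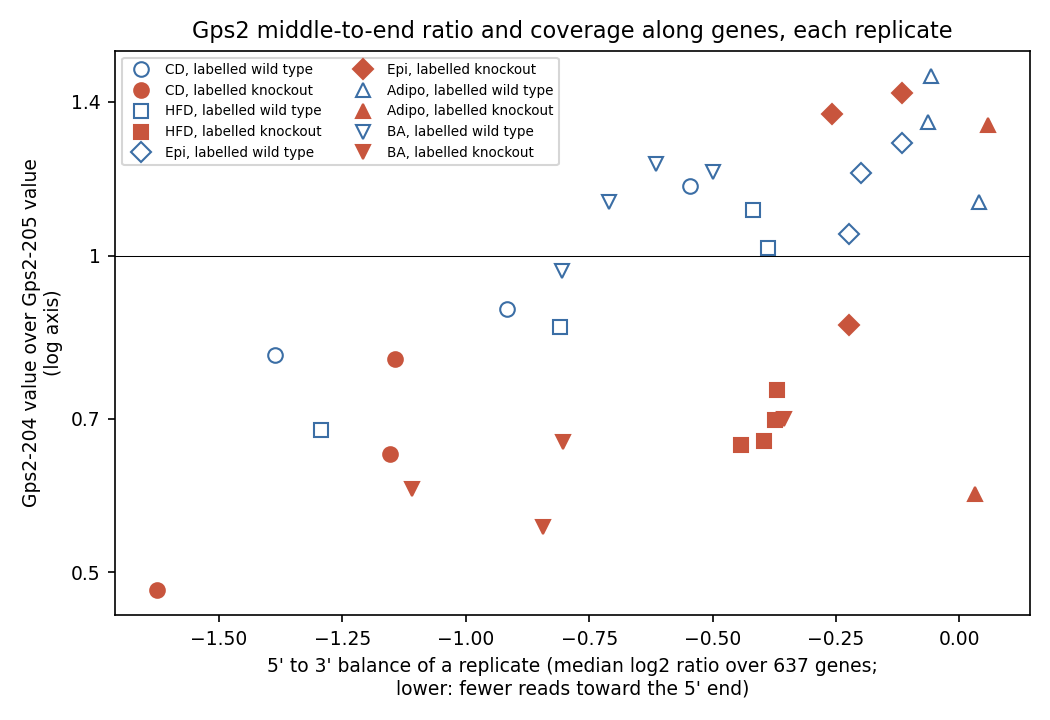
Ratio of the Gps2-204 to the Gps2-205 value (log axis) against the 5′ to 3′ balance in each of 33 replicates, by table and labelled genotype. CD wild type 3 and HFD wild type 4, at balances of −1.39 and −1.29, have the lowest wild type ratios of their tables (0.805 and 0.68), and the BA knockouts (0.55 to 0.70) lie below the BA wild types (0.97 to 1.22).

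Tbl1x and Tbl1xr1, which encode the 2 WD40-repeat subunits, had the smallest p-values of the 5 genes, both in the HFD table (unadjusted p = 0.00169 and 0.00181). Tbl1x had values of 1918, 2157, 1921 and 2043 in the wild types and 2446, 2799, 2525 and 2712 in the knockouts. Tbl1xr1 had 288, 349, 314 and 301 in the wild types and 450.4, 375, 403 and 459.9 in the knockouts. For both genes every knockout was above every wild type. Tbl1x rose by a log2 fold change of 0.38 ± 0.089 (SE) and passed limma at an adjusted p of 0.0493. Tbl1xr1 had 0.43 ± 0.10 and did not pass, at 0.051. Of 14069 genes tested in that table, 1.01% passed as higher and 4.04% did not overlap in the higher direction.

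These 2 values sit at the threshold. Tbl1xr1 passed, along with Tbl1x, under TMM scaling, edgeR (adjusted p = 0.0326) and DESeq2 (adjusted p = 0.000619), and Tbl1x passed in 9 of 24 alternatives. With the 5′ to 3′ balance as a term, the Tbl1x difference was 0.39 (adjusted p = 0.0722) and that of Tbl1xr1 0.40 (adjusted p = 0.114). Without HFD wild types 3 and 4 the differences were 0.36 (adjusted p = 0.117) and 0.41 (adjusted p = 0.147). Over all 24 alternatives the size ran from 0.35 to 0.47 for Tbl1x and from 0.38 to 0.63 for Tbl1xr1, which passed in 7.

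All measured transcripts of both genes pointed the same way in the HFD table. The 8 tested transcripts of Tbl1xr1 and the 2 of Tbl1x did not overlap between genotypes, against 6.58% of all transcripts in the higher direction, but nested transcripts share their reads and are not independent. Tbl1xr1-211, a protein-coding form of 16 exons with a shorter 3′ end than the chosen Tbl1xr1-203, had values of 123, 153, 119 and 83.8 in wild type and 242, 185, 197 and 220.1 in knockout. It passed limma over the 59553 transcripts, of which 0.759% passed as higher, at 0.84 ± 0.18 (SE; adjusted p = 0.0443). That call was not stable. It was lost without moderation (adjusted p = 0.069), without a filter (0.0726), with the replicate number as a block (0.0834) and with leading number 1 or 3 alone (0.0916 and 0.0602). Leaving out wild type 3 gave 0.101, and leaving out 1 knockout gave 0.0796 to 0.152. With the balance as a term the difference was 0.58 (adjusted p = 0.0617), and without wild types 3 and 4 it was 0.61 (0.0696). It held with TMM scaling (0.0463), edgeR (0.041) and DESeq2 (0.000374). As a share of Tbl1xr1-203 it was 27.9% to 43.9% in wild type and 47.9% to 53.8% in knockout, without overlap (exact two-sided permutation p = 0.0286, the smallest for 4 against 4), and 7.86% of all isoform ratios did not overlap in that direction. No isoform ratio of any gene passed limma in that table (0% of 45484), and 7 of 39 member ratios had an unadjusted p under 0.05: 5 of Tbl1xr1, Gps2-204 and Ncor1-218. Of all HFD ratios, 9.5% had such a p. The wild type with the lowest share was replicate 4, whose balance was also the lowest. In the Adipo table that share was 58.6% to 64.2% in wild type and 69.4% and 69.7% in knockout, again without overlap, as for 18.9% of all ratios (exact permutation p = 0.2).

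In the other tables no member was called by limma, edgeR or DESeq2, and of all genes limma called 0% in Epi, 0.632% in Adipo and 0.0322% in BA. Nor did a member transcript pass there, beside 0% of all transcripts in CD, Epi and BA and 0.763% in Adipo. At an unadjusted p under 0.05 there were 1 of 43 member transcripts in CD, 0 of 47 in Epi, 9 of 47 in Adipo and 1 of 44 in BA, beside 9.09%, 9.12%, 21.5% and 7.37% of all transcripts. CD wild types had Tbl1x values of 1557, 1632 and 1937 and CD knockouts of 2483, 2374 and 1999, again without overlap, though knockout 3 was close to wild type 3. The log2 fold change was 0.42 ± 0.16 (SE; unadjusted p = 0.0386, limma adjusted p = 0.516), in a table where 0% of genes passed and 12.4% did not overlap in the higher direction. Without the 3 replicates holding epididymis RNA it was 0.20 (adjusted p = 0.995), with the 1 knockout left assumed to vary like the wild types. The log2 fold change of Tbl1x in Epi and Adipo was −0.04 ± 0.18 and −0.15 ± 0.16, and 0.14 ± 0.12 in BA. Tbl1xr1 was at 793, 859 and 783 in Adipo wild types and at 944 and 987 in Adipo knockouts, without overlap, with a log2 fold change of 0.25 ± 0.12 (SE; limma adjusted p = 0.265). Of all Adipo genes, 20.7% did not overlap in the higher direction, so Tbl1xr1 was 1 of many. BA values of Tbl1xr1 ran from 229.7 to 475 in wild type and from 304 to 508 in knockout.

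**Figure D4:**
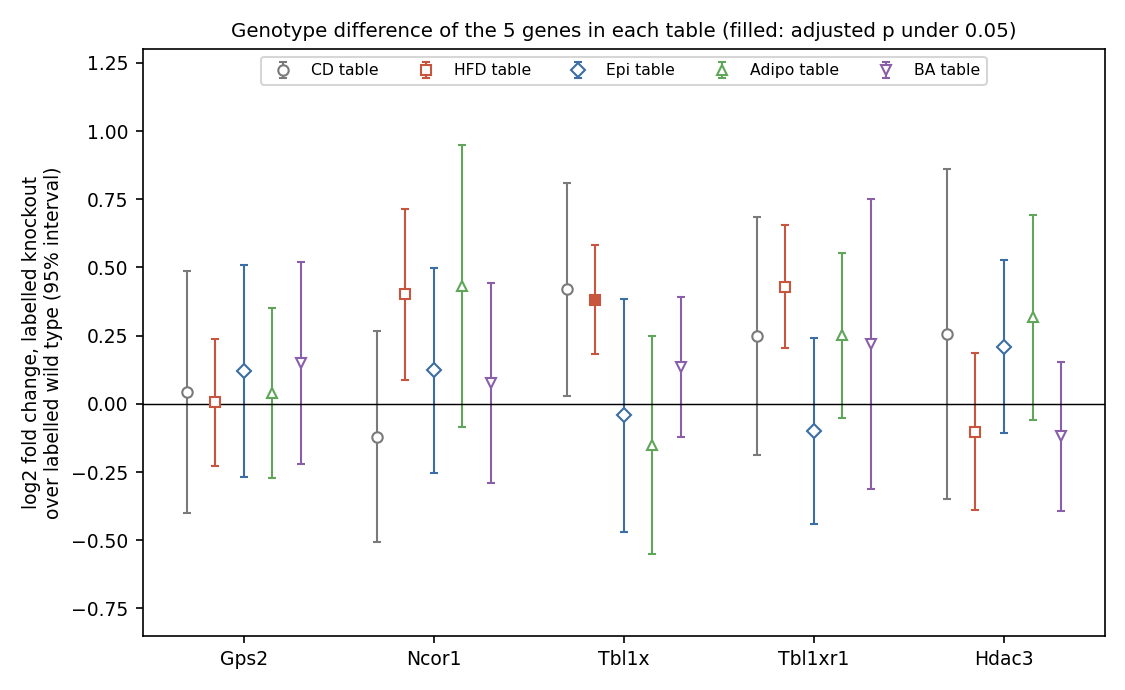
Log2 fold change of each gene between replicates labelled knockout and wild type, with the 95% interval from limma, in each of the 5 tables; a filled symbol marks an adjusted p under 0.05. Tbl1x in the HFD table is the 1 filled symbol, and the 5 Gps2 intervals all include 0.

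Ncor1, the scaffold, followed the WD40 pair in the HFD table without passing the test. Its values were 1982, 1766, 1623 and 1242 in the wild types and 2243, 2083, 2001 and 2302 in the knockouts. The knockouts did not overlap the wild types, but wild type 1 at 1982 and knockout 3 at 2001 differed by little. The log2 fold change was 0.40 ± 0.14 (SE; limma adjusted p = 0.15), and it was 0.20 (adjusted p = 0.357) without wild types 3 and 4. Ncor1 reached an adjusted p of 0.048 in 1 of 24 alternatives, without wild type 1.

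Ncor1 is a long gene on the minus strand of chromosome 11 (62316426 to 62458541), and its short transcripts lie at different distances from its 3′ end. Ncor1-203 covers its 5′ part and Ncor1-216, of 3 exons, its 3′ end. In the HFD table Ncor1-203 was at 172, 171, 112 and 115 in wild type and 198, 157, 153 and 181 in knockout. Ncor1-216 was at 379, 352, 415 and 398 in wild type and 407, 409.8, 403 and 467 in knockout. The low wild type values of Ncor1-203 were thus those of replicates 3 and 4, which were not low for Ncor1-216. Over the 25 Ncor1 transcripts the log2 fold change ran from 0.13 (Ncor1-216) to 0.89 (Ncor1-218), and 13 did not overlap between genotypes, beside 6.58% of all transcripts in the higher direction. These transcripts share reads and are not independent. Exon sharing is slight: 82 bases with Pigl at the 5′ end and 1 base with Ttc19, both on the opposite strand.

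Elsewhere Ncor1 was not called. In the Adipo table its wild types were at 7342, 7802 and 5158 and its knockouts at 8887 and 9092 (log2 fold change 0.43 ± 0.21 SE; limma adjusted p = 0.263), without overlap, as were 20.7% of all genes in the higher direction. Of its 25 transcripts, 24 did not overlap there in the higher direction, against 21.3% of all transcripts. The log2 fold change was −0.12 ± 0.16 in the CD table, 0.12 ± 0.16 in the Epi table and 0.08 ± 0.16 in the BA table, with overlapping genotypes in each.

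Hdac3, which encodes the deacetylase, was called in no table by limma, edgeR or DESeq2, and no Hdac3 value had an unadjusted p under 0.05. HFD wild types were at 937, 965, 1214 and 1358 and HFD knockouts at 978, 1118, 1034 and 994, and the knockouts lay within the wild type range. The log2 fold change was −0.10 ± 0.13 (SE; limma adjusted p = 0.666), and 0.11 without wild types 3 and 4, which were the 2 highest. In the Epi table it was at 2979.7, 3108 and 2357 in wild type and 3264, 3218 and 3214 in knockout, without overlap (0.21 ± 0.13, adjusted p = 0.655), as were 7.32% of genes in that direction. Adipo wild types were at 1914, 1961 and 1515 and Adipo knockouts at 2219 and 2229 (0.32 ± 0.15, adjusted p = 0.26), again without overlap, as were 20.7% of genes there. In the CD and BA tables the genotypes overlapped. The other 3 Hdac3 transcripts, annotated with retained introns, had fold changes close to that of the chosen one. On the log2 scale all 4 lay between −0.18 and −0.10 in the HFD table and between 0.31 and 0.33 in the Adipo table.

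**Figure D5:**
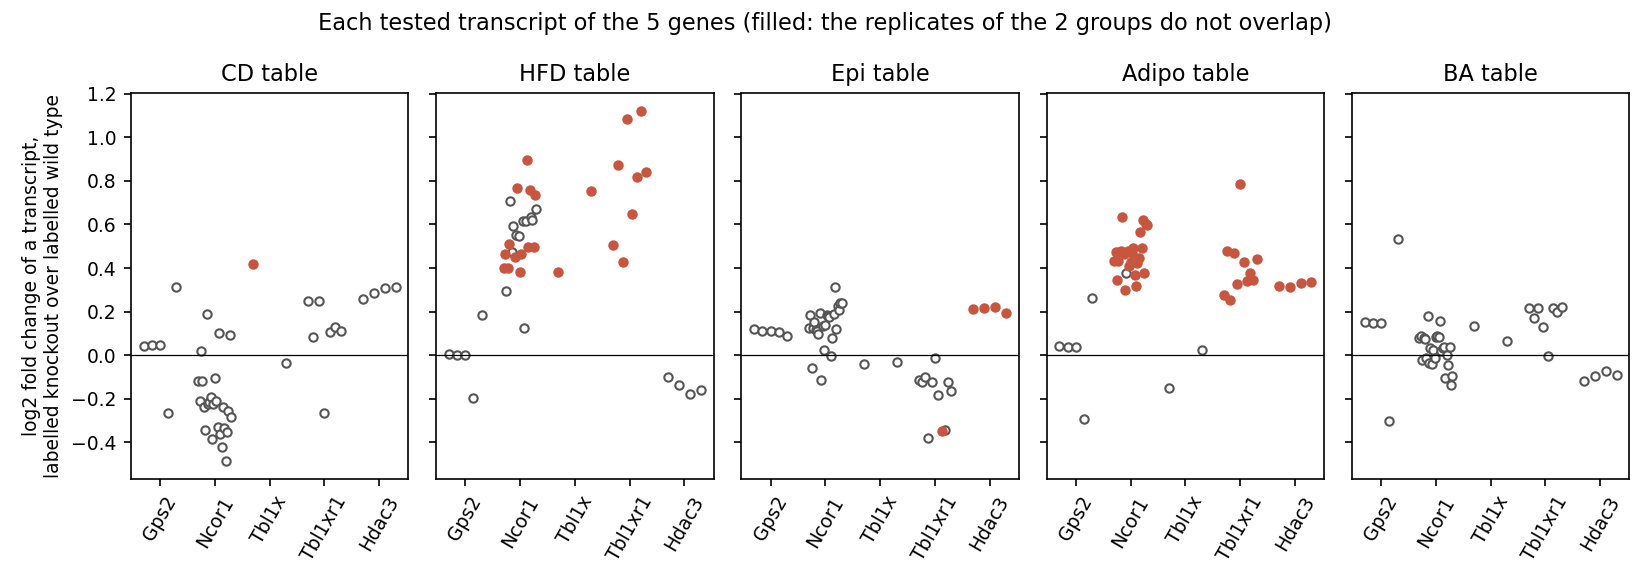
Log2 fold change of every tested transcript of the 5 genes in each table, with filled points where the replicates of the 2 genotypes do not overlap. In the HFD table all Tbl1x and Tbl1xr1 points are filled, and in every table but Epi the Gps2 points include 1 low value, Gps2-204, and 1 high value, Gps2-205.

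A limma F test over the 5 tables asked whether the knockout effect on a gene differed between them, and it called 1246 of 11860 genes (10.5%). None of the 5 members passed: Tbl1x had an adjusted p of 0.103, Ncor1 0.335 and Hdac3 0.353. Whole Gps2 had an adjusted p of 0.963. Tbl1x had an unadjusted p of 0.0201.

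Of the 11 partner genes tested, which include Coro2a, Zbtb33, the class IIa deacetylases and Ube2n, none passed limma in any table, while 2 had an unadjusted p under 0.05 in the CD, HFD, Epi and BA tables and 5 in the Adipo table. Such a p was held by 20.8% of all HFD genes and 24.2% of all Adipo genes, against 9.64% (CD), 9.19% (Epi) and 9.04% (BA). Their median log2 fold change in the BA table was −0.17, beside 0.01 over all genes, and in the HFD table −0.12 beside −0.09.

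Among 25 genes of other corepressor complexes, 1 passed, in the HFD table. Of all genes there, 1.01% passed as higher and 4.04% were higher without overlap. An unadjusted limma p under 0.05 was held by 4 of the 25, beside 20.8% of all HFD genes. It was also held by 4 of the 17 receptors and factors below. Nrip1, which encodes the corepressor RIP140 of nuclear receptors in fat, rose from a mean of 1433 to 2250 (log2 fold change 0.65 ± 0.11 SE; limma adjusted p = 0.0155), and the genotypes did not overlap. The median of that list was −0.07. Among 17 receptors and factors that recruit the complex, 1 passed in the same table. Pparg, the receptor that drives fat cell differentiation, rose from 2422 to 3728 (0.63 ± 0.12 SE; limma adjusted p = 0.0274), also without overlap, while the list's median was −0.07. Of the 12 adipocyte markers 1 passed in the HFD table, Cfd, which encodes adipsin (132658 to 250148, log2 fold change 0.97 ± 0.22 SE; limma adjusted p = 0.0489). Their sum overlapped between genotypes, at 865366 to 1194760 in wild type and 1032440 to 1217390 in knockout. Of the 10 macrophage markers 1 passed, Mertk, as lower (618 to 394, −0.65 ± 0.14 SE; limma adjusted p = 0.0354), while 8 had a higher value. Of the 6 T cell markers tested 1 passed, Cd4, as higher (6.62 to 20.1, 1.49 ± 0.32 SE; limma adjusted p = 0.038). The wild type mean of Cd4 lay below the filter of 10, which this gene met only through the knockouts. Its call is therefore no support for a difference. The sums of both lists overlapped, at 8692 to 17098 and 14540.0 to 15537 for macrophage markers and 86.7 to 169.5 and 133 to 226.5 for T cell markers. The part of these cells in the Nrip1 and Pparg values was not tested. In the CD, Epi, Adipo and BA tables no gene of these 2 lists passed limma, and at an unadjusted p under 0.05 there were at most 7 of the 25, in the Adipo table, where 24.2% of all genes had such a p, and at most 3 of the 17, in the Epi and BA tables (9.19% and 9.04%).

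Within groups, the 5 genes did not vary as 1 unit. Over 33 replicates, with log2 values centred on the mean of each table and genotype, Pearson r between members ran from −0.38 (Gps2 and Tbl1xr1) to 0.59 (Gps2 and Hdac3). The r with the 5′ to 3′ balance was −0.60 for Gps2, −0.80 for Hdac3 and 0.57 for Ncor1, and 0.17 and −0.08 for Tbl1x and Tbl1xr1. Replicates with fewer reads toward the 5′ end thus had higher Gps2 and Hdac3 and lower Ncor1 values. The genes most like Gps2 over 9814 candidates were Lmf2 (r = 0.89), Izumo4 (0.88) and Ehmt2 (0.87). For Hdac3 they were Parp16 (0.91), Mapkapk5 (0.91) and Sfxn4 (0.90).

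The scaffold and the WD40 pair had other neighbours. Ncor1 was most like Spen (0.85), Ankhd1 (0.85) and Trrap (0.84). Tbl1xr1 varied much like Etfdh (0.90), which encodes an electron transfer enzyme of mitochondria, and also like Sepsecs (0.86). Tbl1x had weaker likenesses, to Ubr3 (0.76), Aldh6a1 (0.75) and Ubqln1 (0.74). The median r over all candidates was 0.10 for Gps2, −0.21 for Ncor1, −0.00 for Tbl1x, 0.05 for Tbl1xr1 and 0.23 for Hdac3. These are descriptions over replicates that share tables, depth and coverage.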

How the data were processed

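The labels' protocols name a stranded mRNA kit. The deposited values are a signal for each Ensembl transcript, whose steps are those of whole counts scaled per library. Named in the submitters' processing notes, without settings, are GRCm38.p4, DESeq 1.8.3, HTSeq 0.5.3, SAMtools, STAR 2.4.0k and bcl2fastq 2.17. Whole reads were recovered in 96 of 99 libraries, for 100% of values within 0.01 of a read. Of 100 samples, 99 had a column; 1 column matched no sample and was not used. Of the transcripts, 698 of 97669 had no gene in GENCODE M21 and held 0.332% of the values. One transcript stood for a gene, that with the highest mean among transcripts of the gene's own type. In the CD, HFD and BA tables the 4 libraries of a replicate differed by about sampling noise (chi-square per degree of freedom at most 1.11, against 1.78 or more between replicates) and were averaged.

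Tables were normalised separately, so tests were made within a table. The main test was limma 3.58.1 (R 4.3.3) on log2(value + 1), moderated with a trend and robustly, for features with a mean of 10 or more, with Benjamini-Hochberg adjustment at 0.05 over all features. Recovered counts, rounded from the deposited values, went into DESeq2 1.42.0 and the quasi-likelihood test in edgeR 4.0.16. Isoform ratios were tested as log2((transcript + 1)/(chosen transcript + 1)). Single ratios had exact permutation tests over replicates. No label says that replicates were separate animals, so p-values measure only how far these samples spread, and that spread may be technical. Deviations from group means correlated at 0.16 to 0.70 in 5 pairs of same-numbered Epi and Adipo replicates. Between wild type and knockout of a number within a table, r ran from −0.58 to 0.58. Replicates of unlike number were not correlated, so these values do not establish pairing. The limma and edgeR fits of genes within a table were tested on simulated counts with a fixed dispersion. The transcript, ratio, DESeq2 and between-table fits were not.

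The 5 genes, the lists and the alternatives were chosen with earlier results of these data known. Named were the 5 genes and their transcripts with a mean of 10 or more, up to 4 genes of each other list that passed, and for each gene the 3 with the highest r among genes with a mean of 50 or more in every table. Predicted genes, pseudogenes, immunoglobulin and T cell receptor genes and genes with overlapping exons were left out of the last. Of the genes this rule names, 2 are not reported here. The alternatives changed the scaling (TMM), the moderation (none), the filter (none, or 50), the pseudocount (0.5 or 5) or the test (edgeR, DESeq2), or used the replicate number as block, a sum over transcripts, each leading number alone, CD knockout 1 and 2 as 1 replicate, each replicate left out and, for the test between tables, no CD table. The balance as a term, the fits without replicates that stood apart, the ratio of Gps2-204 to Gps2-205 and the fit of ratios over the 5 tables, with and without the block, were chosen after seeing the data.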

Additional observations from a re-analysis of the deposited data

Results flagged for a closer look

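Among the 56 sets of 4 replicates tested in the HFD and BA tables, for the 5 genes and their ratios, 1 value stood far from its group. The ratio of Ncor1-203 to Ncor1-216 was 0.486 in HFD knockout 1, against 0.38 to 0.389 in the other 3 knockouts, and the gap was 0.92 of the whole range. A gap past the limit used arises by chance in about 1 in 20 groups.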

How the results depend on the processing

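In the CD, Epi, Adipo and BA tables no alternative changed the count of members or member transcripts called. In the HFD table, 1 member was called as reported. The count was 0 without trend or robust moderation, without a filter, with the 5′ to 3′ balance as a term, with leading number 1 or 4 alone and without wild types 3 and 4. It was 2 with a minimum of 50, TMM scaling, edgeR, DESeq2 or a sum over transcripts, and ran from 0 to 2 with 1 replicate left out. Of the member transcripts, 1 was called as reported, 0 without moderation, without a filter, with leading number 1 or 3 alone and without wild types 3 and 4, 3 with a minimum of 50, edgeR or leading number 2 or 4 alone, 9 with DESeq2, and 0 to 5 with 1 replicate left out. With the replicate number as a block the HFD counts were 0 members and 0 transcripts. In the labels, wild type and knockout samples of 1 number share only that number. This block within a table, which leaves out Adipo wild type 3, also turned Gps2 in the Adipo table to −0.0033. Between tables another block was used, of same-numbered Epi and Adipo replicates of a genotype, with all replicates kept. There 1569 genes were called in place of 1246. In the ratio fit over the 5 tables the block of Epi and Adipo replicates brought the count of ratios called from 26 to 25. For the mean difference it went from 9 to 6. The cause of these changes was not tested.

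Signs turned for small differences. With the balance as a term, CD values were −0.18 for Gps2, 0.023 for Ncor1 and −0.079 for Hdac3, the HFD value of Hdac3 was 0.10 and the Epi ratio of Gps2-204 was 0.010. CD Gps2 was −0.058 with TMM, −0.069 with edgeR, −0.075 with DESeq2 and −0.045 with leading number 4. HFD Gps2 was −0.0011, −0.023 and −0.0094 with leading numbers 1, 2 and 3. Without HFD wild types 3 and 4, Hdac3 was 0.11. Without the 2 Epi replicates holding epididymis RNA, with 1 knockout assumed to vary like the others, Tbl1x was 0.069, the Gps2-205 ratio 0.18 and the log2 ratio of Gps2-204 to Gps2-205 −0.45. With 1 replicate left out, Gps2 ran from −0.11 to 0.18 in the CD table, −0.037 to 0.083 in the HFD table and −0.0033 to 0.082 in the Adipo table, and Ncor1 from −0.0022 to 0.25 in the Epi table and −0.021 to 0.22 in the BA table. In the Epi table Tbl1x then ran from −0.14 to 0.14, Tbl1xr1 from −0.23 to 0.0031, the Gps2-204 ratio from −0.079 to 0.11, the Gps2-205 ratio from −0.14 to 0.035 and the log2 ratio of Gps2-204 to Gps2-205 from −0.11 to 0.25. In the Adipo table the Gps2-205 ratio ran from −0.053 to 0.50 and the log2 ratio of Gps2-204 to Gps2-205 from −1.14 to 0.028, the last without knockout 1. Isoform ratios have no other scaling or count test.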
